A study of Caenorhabditis elegans with 2 samples.

Results

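The 5 actin genes of Caenorhabditis elegans, act-1, act-2, act-3, act-4 and act-5, and the actin regulators unc-78 and unc-60 were examined for binding by DAF-16, the FOXO factor held in check by the insulin receptor DAF-2. The 7 genes were taken by name, and each name was found once among 19973 nuclear protein-coding genes. Binding was measured by chromatin immunoprecipitation and sequencing of whole L4 hermaphrodites, 54 hours after synchronisation of starved L1 larvae, as 2 biological replicates of a single group. The strain, ZM7247, carries daf-16(mu86), a deletion allele, daf-2(e1370), an allele with reduced insulin signalling, and the transgene hpSi4, in which the promoter of the body wall muscle myosin gene myo-3 drives GFP::daf-16a. The tagged factor is thus made in body wall muscle according to the genotype, while the chromatin came from all tissues of the animal and was precipitated through the GFP tag, which the labels also describe as a C-terminal GFP-FLAG. No other genotype and no control library were analysed here, so every comparison below is between genes or peaks of this one strain, and none is between conditions.

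Actin filaments are built from globular actin and form, with tropomyosin and troponin, the thin filaments that slide along myosin in the muscle sarcomere. The cluster genes act-1, act-2 and act-3 and the gene act-4 are known as the muscle actins, whereas act-5 is known as the actin of intestinal microvilli and of the excretory canal. Filaments are kept in turnover by ADF/cofilin, which severs them and is encoded by unc-60, and by the actin-interacting protein 1 of unc-78, which speeds disassembly of cofilin-decorated filaments. Loss of either regulator disorganises actin in body wall muscle.

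The deposited lists give, for each peak, a summit position and the signal of the authors' peak caller, which has no stated unit and no replicate error. The IDR list holds 2563 peaks that passed a threshold on the irreproducible discovery rate between the replicates, and these were the strongest of 30000 candidates called on the pooled replicates. The replicate lists hold 26922 candidates in replicate 1 and 25562 in replicate 2. The pooled and replicate lists are named as peaks and background together, so a candidate outside the IDR list need not be a bound site. Read counts are not in these lists, so sequencing depth is unknown and no counting error can be attached to a signal. Summits were collected from 3000 bp upstream of each gene to 500 bp past its end. Coordinates are 1-based on ce11.

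The sequences below carry the IDR summits that the results turn on, with the summit at base 101 of each 201-base stretch, read 5' to 3' along the strand of the gene. Capitals mark matches, on either strand, to the DAF-16 binding element TGTTTAC, the DAF-16 associated element CTTATCA, the repeat unit GAGAGA, the E-box CAGCTG, the GATA site TGATAA and the MEF2 motif. The first 3 lines surround act-1, the next are the strongest summits of act-3, act-4 and unc-78, and the last lies upstream of unc-60.
act-1, 431 bp upstream of its start, chrV:11080521-11080721, plus strand: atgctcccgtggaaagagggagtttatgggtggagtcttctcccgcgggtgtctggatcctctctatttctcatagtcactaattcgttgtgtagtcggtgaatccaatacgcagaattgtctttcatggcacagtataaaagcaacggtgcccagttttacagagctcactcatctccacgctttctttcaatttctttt
act-1, 176 bp past its end, chrV:11082491-11082691, plus strand: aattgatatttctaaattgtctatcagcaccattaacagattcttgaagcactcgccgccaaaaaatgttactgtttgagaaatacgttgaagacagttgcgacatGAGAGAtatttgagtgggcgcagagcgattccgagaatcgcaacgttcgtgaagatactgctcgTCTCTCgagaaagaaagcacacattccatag
act-1, 377 bp past its end, chrV:11082692-11082892, plus strand: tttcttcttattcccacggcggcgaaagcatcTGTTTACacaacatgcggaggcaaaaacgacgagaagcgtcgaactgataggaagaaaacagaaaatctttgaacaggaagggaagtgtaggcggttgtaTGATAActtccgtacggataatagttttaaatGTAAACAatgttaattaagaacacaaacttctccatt
act-3, 133 bp upstream of its start, chrV:11074531-11074731, minus strand: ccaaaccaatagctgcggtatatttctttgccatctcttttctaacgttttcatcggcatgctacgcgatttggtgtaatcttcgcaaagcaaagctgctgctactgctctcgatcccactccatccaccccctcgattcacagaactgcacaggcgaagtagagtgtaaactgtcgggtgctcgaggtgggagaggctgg
act-4, in its first intron, chrX:4962411-4962611, plus strand: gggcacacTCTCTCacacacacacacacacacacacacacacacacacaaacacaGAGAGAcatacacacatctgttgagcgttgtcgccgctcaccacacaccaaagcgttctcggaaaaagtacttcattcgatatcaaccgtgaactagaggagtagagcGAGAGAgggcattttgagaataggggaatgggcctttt
unc-78, 522 bp upstream of its start, chrX:3412037-3412237, minus strand: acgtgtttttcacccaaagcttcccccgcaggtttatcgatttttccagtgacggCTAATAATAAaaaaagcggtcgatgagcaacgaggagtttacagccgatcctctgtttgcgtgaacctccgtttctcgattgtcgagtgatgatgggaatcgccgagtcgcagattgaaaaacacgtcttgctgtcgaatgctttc
unc-60, 354 bp upstream of its start, chrV:1474632-1474832, plus strand: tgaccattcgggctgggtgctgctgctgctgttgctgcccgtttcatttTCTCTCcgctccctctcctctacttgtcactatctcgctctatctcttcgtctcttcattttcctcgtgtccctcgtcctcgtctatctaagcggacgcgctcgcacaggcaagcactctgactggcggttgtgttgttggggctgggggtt
The stretches upstream of act-1 and act-3 hold no capital, so none of the 6 motifs was found within 100 bp of those summits.

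Of the 7 genes, 6 had at least 1 IDR summit in the window, and act-5 had none. Among all nuclear protein-coding genes the share with an IDR summit in the same window was 14.2% (Wilson 95% interval 13.7 to 14.7, 2831 of 19973), and among genes with any pooled candidate there it was 24.1%. The windows of act-1, act-4 and unc-60 each held 3 or more IDR summits, as did 0.706% of all genes. Close neighbours are counted separately in both numbers. The summits of act-1 form pairs 200 and 201 bp apart, and those past unc-60 stand 206 bp apart. The counts of act-1 and unc-60 thus need not stand for 3 separate sites. The windows of the 7 genes ran from 4864 to 7991 bp, against a median of 5527 bp for all genes, and a longer window can hold more summits. With windows from 1000 bp upstream to the gene's end, 5 of the 7 genes had an IDR summit (8.9% of all genes), and from 1000 bp upstream to 200 bp downstream of the start 5 had one (6.25%). The gene lost in both, beside act-5, was act-2. Among IDR peaks of at least the median signal, 3 of the 7 genes had one, act-1, act-2 and unc-78 (7.8%). When the 2563 strongest candidates of a single replicate took the place of the IDR list, 6 of the 7 had one, both for replicate 2 (14.2%) and for replicate 1 (14.0%).

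Counted once each, the windows held 45 pooled candidates, of which 12 were IDR summits, beside 2563 of 30000 over the whole lists. Of these 12, 5 lay in the act-1, act-2 and act-3 cluster. Relative to the nearest of the 7 genes, and leaving other annotated genes aside, 7 of the 12 lay upstream, 1 lay within the gene and 4 lay past its end. The same split over all IDR summits is not given here, so this one only describes the 12.

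The cluster of act-3, act-2 and act-1 spans 10726 bp of chromosome V, from 11071690 to 11082415. In it act-1 (WBGene00000063, V:11081052-11082415, plus strand) had the strongest signals of all 7 genes, on both of its sides. Upstream, the summit at V:11080621 had a signal of 267 in the pooled list, 127 in replicate 1 and 145 in replicate 2, and ranked 119 of 30000. It lay 431 bp upstream of the annotated start, inside T04C12.16, a noncoding RNA gene on the opposite strand. The start of T04C12.16 is 3 bp from this summit, so the summit cannot be assigned to act-1 alone. A second summit of the same called region, at V:11080821 and 231 bp upstream, had 72.9 in the pooled list, 24.2 in replicate 1 and 32.8 in replicate 2. The higher of the 2 upstream signals was at the summit farther from the gene.

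Past the end of act-1 there were also 2 IDR summits. The summit at V:11082591, 176 bp past the end, had the highest signal at any of the 7 genes, 291 in the pooled list (rank 103), 133 in replicate 1 and 163 in replicate 2. Its neighbour at V:11082792, 377 bp past the end, had 170 in the pooled list, 99.0 in replicate 1 and 80.8 in replicate 2. Both lay outside annotated genes, and the next protein-coding gene on that side, Y42A5A.1, starts 5.53 kb past the end of act-1. The noncoding RNA gene T04C12.29, whose start is 151 bp from the stronger summit and 50 bp from the weaker, is annotated between them. No pooled candidate had its summit within the transcribed part of act-1.

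The genes act-2 and act-3 had weaker or no IDR summits of their own. The window of act-2 (WBGene00000064, V:11076777-11078154, minus strand) held 2 IDR summits, which were those upstream of act-1, 2467 and 2667 bp from the start of act-2 and much closer to act-1. Candidates nearer to act-2 stayed below the IDR list, whose lowest signal was 60.5. The closest one upstream, 901 bp from its start at V:11079055, had 33.8 in the pooled list and 25.5 in replicate 2, while the summit within 100 bp in replicate 1 had 5.85. Upstream of act-3 (WBGene00000065, V:11071690-11074498, minus strand), 133 bp from its start at V:11074631, 1 IDR summit had 91.2 in the pooled list (rank 1343), 62.0 in replicate 1 and 34.8 in replicate 2. A candidate at V:11071497, past the end of act-3, had 55.1 in the pooled list, just under the IDR list. In the 2563 strongest candidates of replicate 1 alone, act-1 had 3 summits, and act-2 and act-3 had 1 each. In those of replicate 2 alone, act-1 had 3, act-2 had 1 and act-3 had 2.

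**Figure D1:**
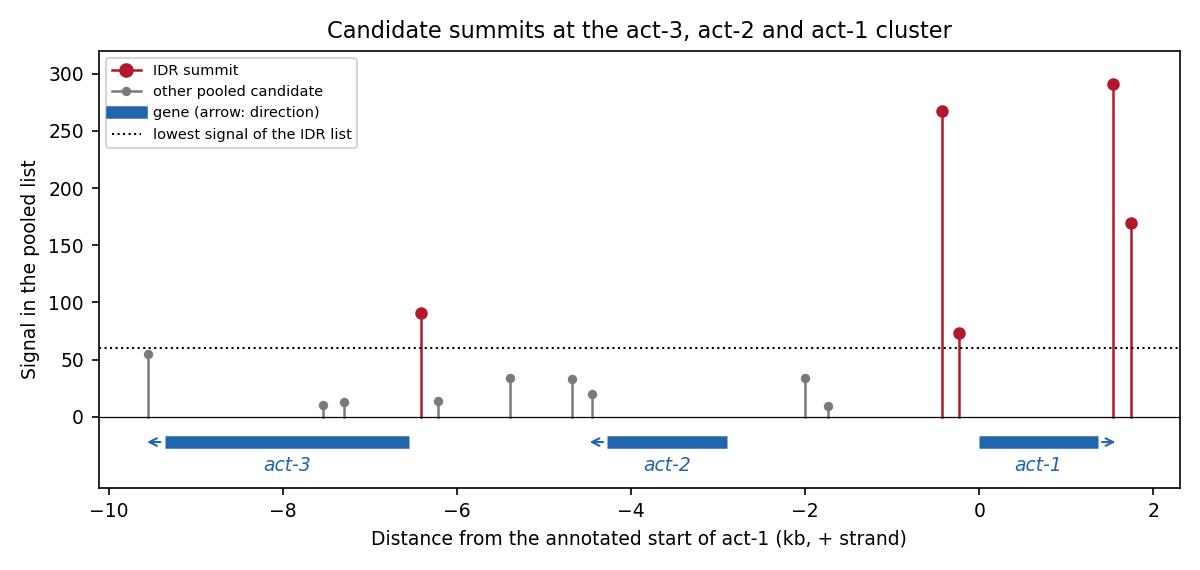
Signal in the pooled list (y axis) of every candidate summit in the windows of act-3, act-2 and act-1, against distance from the start of act-1 in kb (x axis), with IDR summits in red, other candidates in grey and genes in blue. The 4 red summits around act-1 reach 291, 267, 170 and 72.9, the one beside act-3 reaches 91.2, and none stands beside act-2.

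The muscle actin gene act-4 (WBGene00000066, X:4960621-4964413, plus strand) had 3 IDR summits of nearly equal and low signal. The strongest, at X:4962511 in the first intron, 1890 bp into the gene, had 78.5 in the pooled list (rank 1744), 39.3 in replicate 1 and 37.8 in replicate 2. This intronic stretch carries a run of CA repeats, and 16 of the 171 sequences of 31 bases within 100 bp of the summit occurred again in the genome. The annotated start of a shorter act-4 transcript lies 364 bp further on. The summit 989 bp upstream, at X:4959632, had 66.6 in the pooled list, 23.0 in replicate 1 and 40.5 in replicate 2.

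The remaining IDR summit of act-4, at X:4960578 and 43 bp upstream of the start, had 62.3 in the pooled list and 43.3 in replicate 2. In replicate 1 no summit lay within 100 bp, and the nearest, 185 bp away, had 22.2. The window also held candidates just under the IDR list near the gene's end, 56.0 at X:4964290 and 49.0 at X:4964513. Of the 2563 strongest candidates of replicate 1 alone, 1 lay in the act-4 window, against 4 of those of replicate 2, so the number of strong summits at act-4 differed between the replicates. Neighbouring M03F4.6, on the opposite strand, ends where act-4 ends, so candidates there cannot be assigned to either gene.

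The disassembly factor gene unc-78 (WBGene00006810, X:3408674-3411615, minus strand) had a single strong summit. At X:3412137, 522 bp upstream of its start, it had 196 in the pooled list (rank 259), 91.3 in replicate 1 and 108 in replicate 2. Its other 3 pooled candidates had signals of 15.1 or less. The peak spans only 312 bp, whereas 69.1% of IDR peaks have the usual width of 436 bp. The microRNA gene cel-mir-271 lies within the same peak (X:3412004-3412097, plus strand), with its hairpin ending 40 bp from the summit. The closest annotated start, 30 bp from the summit, is that of the noncoding RNA gene C04F6.8, so the peak cannot be assigned to unc-78 alone.

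The ADF/cofilin gene unc-60 (WBGene00006794, V:1475086-1479576, plus strand) had low IDR summits at both of its ends. Upstream, 354 bp from the start at V:1474732, the signal was 65.8 in the pooled list (rank 2270), 31.6 in replicate 1 and 35.7 in replicate 2. The same start is annotated for F53E2.2, which overlaps unc-60. Past the end, the summit at V:1479631, 55 bp downstream, had 77.2 in the pooled list (rank 1793), 42.9 in replicate 1 and 34.4 in replicate 2. The one at V:1479837, 261 bp downstream, had 66.5 in the pooled list, 36.9 in replicate 1 and 28.5 in replicate 2. The nearest protein-coding start to these summits is that of C38C3.4, at 2411 and 2205 bp, so they cannot be assigned to unc-60 alone. Between these ends 6 pooled candidates lay within the gene, all below the IDR list.

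**Figure D2:**
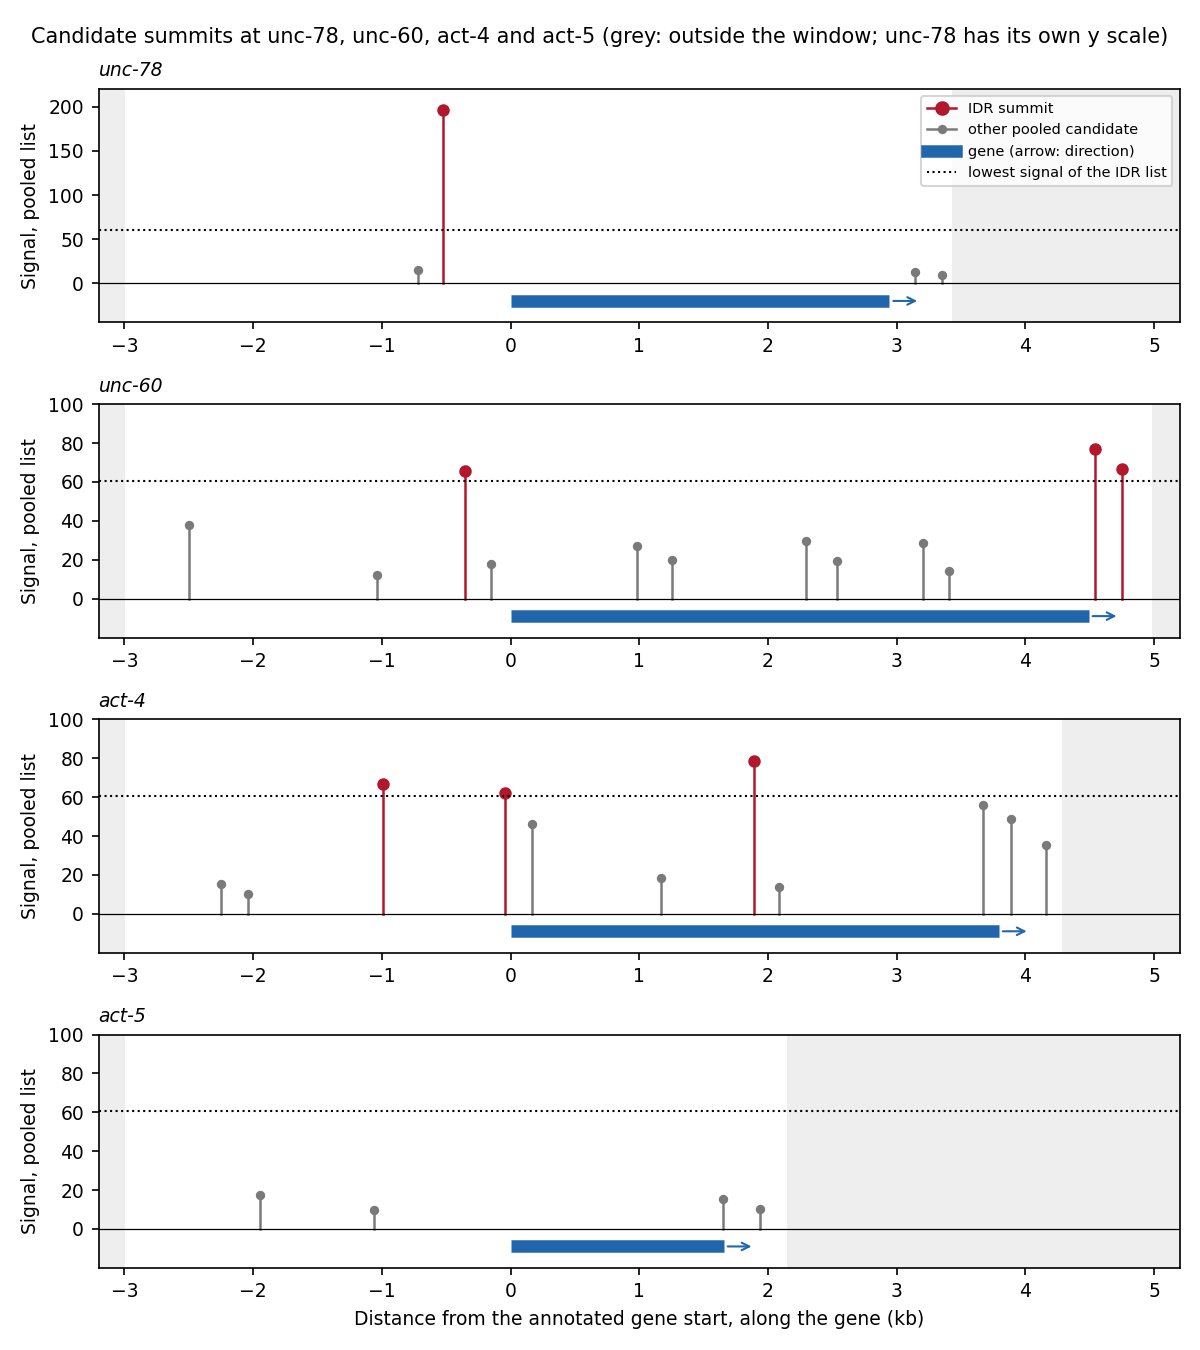
Signal in the pooled list (y axis) of every candidate summit against distance along the gene from its annotated start in kb (x axis), for unc-78, unc-60, act-4 and act-5, with IDR summits in red and other candidates in grey. The single red summit of unc-78 reaches 196, those of unc-60 and act-4 lie between 62.3 and 78.5, and the candidates of act-5 do not exceed 17.3.

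The intestinal actin gene act-5 (WBGene00000067, III:13604412-13606066, minus strand) had no IDR summit and only weak candidates. Its 4 pooled candidates had signals from 9.71 to 17.3, the strongest ranking 14187 of 30000. Their deposited q-values ran from 0.48 to 0.89. That strongest one, 1944 bp upstream, lay 10 bp from the start of the divergent gene shpk-1. Replicate 1 held 1 candidate in the window, with a signal of 7.19, and replicate 2 held 2, the stronger with 10.5. None of the 4 pooled candidates had a summit within 100 bp in both replicates. The median strongest candidate over the 11759 genes with any was 27.3, above every value at act-5.

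The order of the genes by their strongest pooled signal was act-1 (291), act-2 (267, a summit beside act-1), unc-78 (196), act-3 (91.2), act-4 (78.5), unc-60 (77.2) and act-5 (17.3). Over the 2831 genes with an IDR summit, act-1 ranked 104, act-2 129, unc-78 312, act-3 1624, act-4 2052 and unc-60 2097 by the strongest one in the window. The values of act-3, act-4 and unc-60 cannot be ordered: the strongest candidate in the window had 62.0, 39.3 and 42.9 in replicate 1 and 34.8, 48.4 and 35.7 in replicate 2. The strongest IDR summit lay upstream for act-2, act-3 and unc-78, within the gene for act-4 and past the end for act-1 and unc-60. Over all genes with an IDR summit in the window, the strongest was upstream in 67.5%, within the gene in 20.9% and past the end in 11.6%.

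Of the 12 IDR summits, 11 had a summit within 100 bp in both replicates, and the share over all IDR peaks was 94.9%. The 4 strongest, at act-1 and unc-78, ranked 114, 128, 287 and 235 in replicate 1 and 88, 114, 233 and 486 in replicate 2. Their signals had ratios of replicate 2 to replicate 1 of 1.22, 1.14, 1.18 and 0.82. Over all matched IDR peaks the median ratio was 1.09 and its quartiles were 0.88 and 1.35. The upstream summit of act-3 had a ratio of 0.56 and that of act-4 at 989 bp a ratio of 1.76, both outside these quartiles, as was the 0.82 above. The other weaker summits matched in both replicates had ratios from 0.77 (261 bp past unc-60) to 1.35 (231 bp upstream of act-1). Both of these also lay outside the quartiles, the latter barely, as did the 0.80 at 55 bp past unc-60. Quartiles leave many peaks outside by definition, so this marks no summit as unusual. Of the 33 pooled candidates in the windows that were not IDR summits, 8 had a summit within 100 bp in both replicates. For all 45 the number was 19, beside 28.6% of all pooled candidates (8571 of 30000). IDR peaks passed a threshold on agreement between the replicates, and they made up 12 of the 45 but 2563 of the 30000. The share over all candidates that were not IDR peaks is not given here, so neither count is read as unusual reproducibility.

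**Figure D3:**
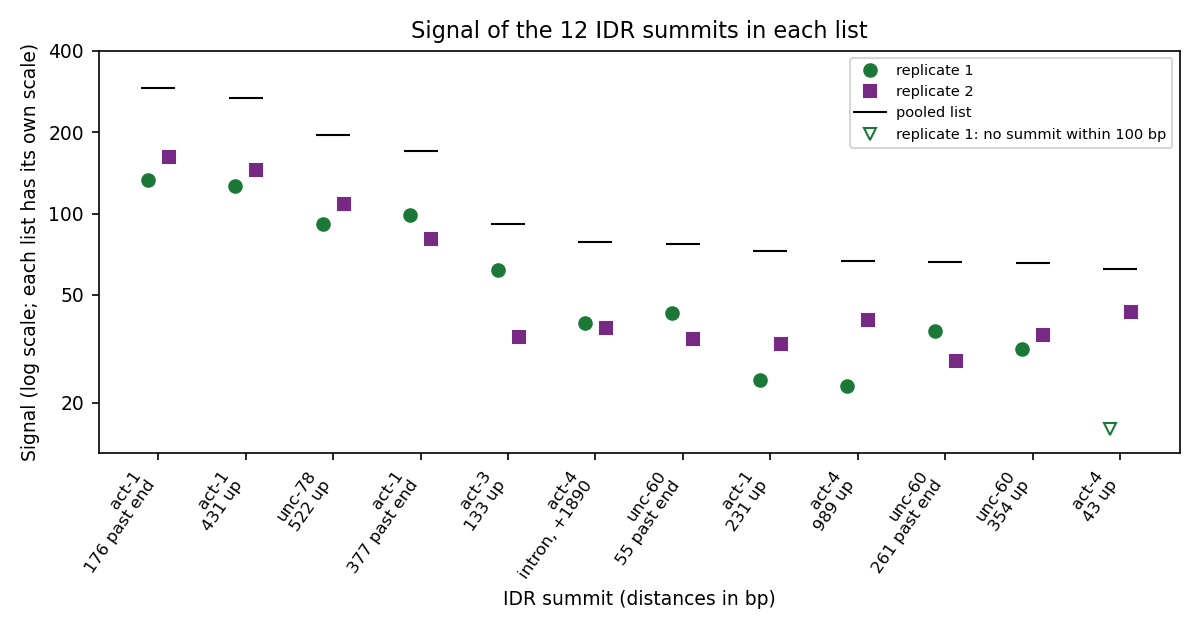
Signal on a log scale (y axis) of the 12 IDR summits (x axis, named by gene and distance in bp) in replicate 1 (circles), replicate 2 (squares) and the pooled list (bars), and an open triangle where replicate 1 had no summit within 100 bp. The 4 leftmost summits, at act-1 and unc-78, exceed 80 in both replicates, while the others lie between 23.0 and 62.0.

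Summits that stand close together cannot be read as separate sites. The smallest distance between neighbouring summits was 199 bp in every list, and 10 of the 12 IDR summits had another pooled summit at 200 to 206 bp. The share of all IDR peaks with such a neighbour is not given here, so this is not read as a trait of these genes. Counting IDR summits within 250 bp of each other once, the windows held 9 in place of 12.

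The DAF-16 binding element TGTTTAC, or its reverse complement GTAAACA, was found within 100 bp of 1 of the 12 summits, while 8.93% of all IDR peaks and 2.45% of the other pooled candidates hold it. That summit is the one 377 bp past the end of act-1, which carries the element on both strands, centred 65 bp before and 67 bp after the summit. No match lay within 100 bp of the other 11, which says only that these letters are not in those windows. GAGAGA or its reverse complement was found at 3 of the 12, the intron of act-4, the upstream summit of unc-60 and the summit 176 bp past act-1, while 40.9% of IDR peaks and 16.1% of other candidates hold it.

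Of the other motifs, the GATA site TGATAA was at 2 of the 12 (15.1% of IDR peaks, 16.3% of other candidates), both beside act-1. The DAF-16 associated element CTTATCA was at 1 (3.75% of IDR peaks, 3.37% of other candidates), 231 bp upstream of act-1. Its reverse complement TGATAAG always contains TGATAA, so the same bases are also counted as a GATA site. The MEF2 motif, named for a muscle transcription factor, was at 1 (3.39% of IDR peaks, 7.3% of other candidates), upstream of unc-78. CAGCTG, an E-box of the kind that muscle HLH-1 binds, was at none of the 12 (10.4% of IDR peaks, 5.84% of other candidates). With so few summits these counts describe the 12 windows and nothing more, and the window 231 bp upstream of act-1 is not among the sequences printed.

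The coding sequences of act-1, act-2, act-3 and act-4 are closely alike and that of act-5 less so, which bears on where reads can be placed. Over 1128 aligned bases act-1 and act-3 were identical, act-1 and act-2 shared 96.2%, act-1 and act-4 94.1% and act-2 and act-4 91.8%, while act-5 shared 82.3% to 85.0% with the other actins. Of the 31-base sequences in coding exons, 100% recurred elsewhere in the genome for act-1 and act-3, 46.5% for act-2, 23.9% for act-4, 2.80% for act-5 and none for unc-78 and unc-60. No pooled candidate had its summit within act-1, act-2 or unc-78, while act-3 had 2, act-4 had 5, act-5 had 1 and unc-60 had 6. These counts take in introns and untranslated parts, whereas the repeated shares are of coding exons only. The genes also ran from 1364 to 4491 bp, so the counts cannot be set against those shares. How reads matching several places were treated is not given in the sources used here, and its part in these numbers was not tested. None of the 31-base sequences within 100 bp of the IDR summits of act-1, act-3 and unc-78 recurred, and of the other summits only the intronic one of act-4 and that 261 bp past unc-60 held any.

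Other regulators of actin were examined in the same way. Of 28 further genes of actin dynamics, 9 had an IDR summit in the same window, beside the 14.2% of all genes, and their windows had a median of 9082 bp. The strongest was at cap-2, which encodes a subunit of the capping protein that closes filament ends. The cap-2 summit had a signal of 206 and lay 219 bp upstream of the start (108 in replicate 1, 98.5 in replicate 2). Next was atn-1, the alpha-actinin of the dense body, with a signal of 172 in an intron (77.6 in replicate 1, 98.3 in replicate 2). The cyclase-associated protein gene cas-1 had 132 at 1985 bp upstream (68.9 in replicate 1, 71.2 in replicate 2), and the filamin gene fln-1 had 110 in an intron (70.8 in replicate 1, 52.4 in replicate 2). Signals between 62.8 and 93.2 were seen for the tropomodulin gene unc-94 (93.2), the gelsolin-like gene gsnl-1 (82.8), the calponin-repeat gene unc-87 (82.2), the profilin gene pfn-3 (72.4) and the tropomyosin gene lev-11 (62.8). The lev-11 summit lay nearer to the start of Y105E8B.11. GAGAGA was at 8 of these 9 summits, beside 40.9% of all IDR peaks, and TGTTTAC was at none, beside 8.93%, a share at which 0 of 9 is near the background.

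By role, 4 of 5 genes of filament binding and crosslinking had an IDR summit, atn-1, fln-1, unc-87 and lev-11 but not plst-1. Of the 5 capping and end-binding genes 2 had one, not cap-1, tmd-2 or eps-8. Of the 4 severing and disassembly genes 1 had one, not the coronin genes cor-1 and pod-1 or aipl-1, the second actin-interacting protein 1 gene. Of 3 profilin genes 1 had one, not pfn-1 or pfn-2, and of the 2 cyclase-associated protein genes 1 had one, not cas-2. None of the 9 nucleation genes had one. With 14.2% of all genes having one, counts of 0 or 1 in such small groups are near that share, and the windows of the binding and crosslinking genes were long, with a median of 10771 bp against 5527 bp for all genes. The nucleation genes were the Arp2/3 subunits arx-1, arx-2, arx-3, arx-4, arx-5, arx-6 and arx-7, which start branched filaments in many cell types, and the formins fhod-1 and cyk-1, and their strongest candidates ran from 11.1 to 56.3.

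Muscle and intestinal genes were set beside the actins in the same window. Of 10 muscle filament genes, among them myosins, paramyosin, troponins and again lev-11, 9 had an IDR summit, beside the 14.2% of all genes, and tni-3, a troponin I gene, did not. Their windows had a median of 5381 bp. Their strongest summits ran from 62.8 to 865. That of unc-54, in its 3' untranslated part, lay 136 bp from the start of aex-5. Those of tnt-2 and mup-2 lay inside the noncoding RNA genes F53A9.11 and T22E5.10. These summits cannot be assigned to the muscle genes alone. The highest was that of myo-3 (V:12235686, rank 12), whose promoter is also in the transgene, so its signal can come from either copy. Of 7 intestinal genes (elt-2, elt-7, ges-1, vha-6, ifb-2, erm-1 and pept-1) none had an IDR summit, a count near the 14.2% of all genes, in windows with a median of 7453 bp. Among them 2 had any candidate, with 21.0 at erm-1 and 12.6 at elt-7, beside 11759 of 19973 genes. The others had none, whereas act-5 had 4. The strongest of act-5, 17.3, lay 10 bp from the start of shpk-1. The lists hold no measure of expression, so whether these genes were active in the animals is not shown.

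**Figure D4:**
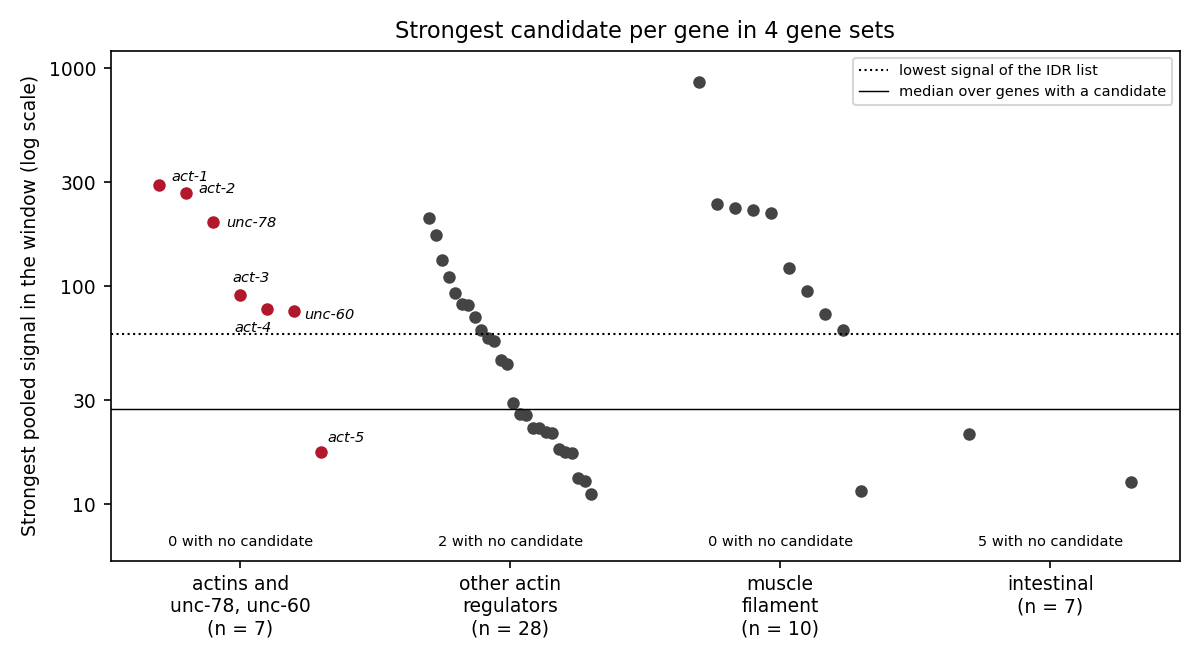
Strongest pooled signal in the window on a log scale (y axis), 1 point per gene, for the actin genes with unc-78 and unc-60 (red), other actin regulators, muscle filament genes and intestinal genes (grey), with the lowest signal of the IDR list (60.5, dotted) and the median over genes with a candidate (27.3, solid). All red points but act-5 lie above the dotted line, as do 9 of 28, 9 of 10 and 0 of 7 genes of the other sets, and lev-11 is in 2 of them.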

How the data were processed

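DAF-16 ChIP-seq peak lists on ce11 were used: the IDR list, the candidates called on both replicates pooled, and those of each replicate. Per the file headers' narrowPeak layout, the authors deposited a peak signal, a −log10 q-value and a summit offset for each peak. All IDR peaks had the same q-value (1.27e-04), so the deposited −log10 values did not rank the IDR peaks. No source used here gives the aligner, caller, versions, IDR threshold or signal scaling. The labels name a possible control experiment.

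Genes came from Ensembl release 115 on WBcel235, the assembly that ce11 names, and no peak end lay past a chromosome's length. Sequences came from RefSeq's copy of WBcel235. Summits of different lists matched within 100 bp, motifs were searched on both strands within 100 bp, and 31-base sequences were sought on both strands of the whole genome. Python 3.11.15, pandas 2.3.3 and Biopython 1.88 were used, and window and motif counting was tested on simulated data.

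No test was made between genes, since the 7 genes, the other lists and the settings were chosen with earlier results of these data known. The named genes were the 7, the other actin regulators, the genes with the start nearest to an IDR summit and myo-3. Alternatives were other gene and motif windows, other match distances, stronger peaks, the nearest gene start and each replicate left out, with the IDR list replaced by the same number of top candidates from the remaining one.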

Additional observations from a re-analysis of the deposited data

How the results depend on the processing

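No paired analysis was possible because both replicates belong to a single group. Of 35 alternatives, 23 kept their count within 1.5 times and 12 did not. Keeping only the 1282 IDR peaks of at least the median signal, 3 of the 7 genes had a summit (act-1, act-2 and unc-78), with 4 summits in all, while 7.80% of all genes had one. With windows around the start, reaching 1000 bp upstream and 200 bp into the gene, 7 of the 12 summits, 2 of the 28 other actin regulators and 6.25% of all genes remained counted. The share of all genes was 8.90% in the window from 1000 bp upstream to the gene's end and 24.1% among genes with a candidate. In both of these narrower windows, and with summits given to the nearest start, act-2 was no longer counted. TGTTTAC was at 0 summits within 50 bp and at 2 within 200 bp, and within 200 bp CTTATCA was at 2, GAGAGA at 6 and TGATAA at 4. The shares of all IDR peaks at these widths are not given here. A wider stretch holds more matches anywhere, so these counts cannot be set against the shares within 100 bp. With either replicate left out, 6 of the 7 genes had a summit, 9 to 12 summits were counted, 9 other regulators had one and the share of all genes was 14.0% to 14.2%. Counting summits within 250 bp once was chosen after seeing the data. Depth is unknown, so a gene with no IDR summit is not shown to lack binding.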
